A study of Mus musculus with 6 samples.

Results

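Genes of the Wnt pathway were described in dermal fibroblasts, sorted from ventral skin, of mice that carry a parathyroid hormone-related protein (PTHrP) transgene under the keratin 14 promoter (K14-PTHrP, KrP) and of their wild-type (WT) littermates. The set holds every Wnt ligand, Frizzled receptor and R-spondin by symbol, and 19 named co-receptors, nuclear factors and feedback genes. Of these 52 genes, 51 had a probe set of their own among the 22180 genes measured, and Tcf7 was not analysed here. There were 3 WT and 3 KrP samples, each on 1 array, from female mice 8 to 12 weeks old on a C57BL/6 background. Values are log2 expression, so a difference of 1 is a 2-fold change. WT skin was described as resting (telogen) skin and KrP skin as nipple-like skin. The keratin 14 promoter drives the transgene in basal keratinocytes, a cell type outside the sort gate. Cells were pooled before the sort for CD140 without CD31, CD45, CD117 and CD49f. The labels name 3 mice as the source without saying whether that is per sample or per group, so p-values here reflect only how far these samples differ, in part perhaps for technical reasons. The descriptions of KrP 2 and KrP 3 name another keratin than K14, while their genotypes and source names give K14.

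Wnt proteins are lipid-modified secreted signals that bind Frizzled receptors. With the co-receptors Lrp5 or Lrp6 they stop the destruction of beta-catenin, which then enters the nucleus and works with TCF and LEF factors. Other Wnt proteins, Wnt5a the best known, act through Ror receptors and cell polarity proteins without beta-catenin. R-spondins bind Lgr receptors and keep the ubiquitin ligases Znrf3 and Rnf43 from removing Frizzled proteins, and the pathway restrains itself through Axin2, Nkd, Notum and Dact proteins. In skin these signals start hair follicles and mammary buds, and in the embryonic mammary mesenchyme PTHrP is known to act together with Wnt signalling.

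KrP fibroblasts differed from WT fibroblasts at single steps of the pathway, in both directions. The ligand gene Wnt10a was 1.77-fold higher and the Dishevelled-binding regulator Dact1 was 2.14-fold higher. The co-receptor gene Lrp5 was 2.23-fold lower and the Dishevelled inhibitor Nkd2 was 2.21-fold lower. These 4 of 51 members passed limma at a Benjamini-Hochberg adjusted p under 0.05, 2 higher and 2 lower, and 47 did not pass. That is 7.84% of the members, where 2.18% of all genes tested passed (1.15% higher and 1.03% lower). Samples were also blocked by replicate number, a pairing that no label states and that was read from these same values. With this block 10 members passed (4 higher and 6 lower, 19.6%), where 8.35% of all genes did (5.33% higher and 3.02% lower). Fzd2 and Wnt5a were added to those higher, and Fzd4, Rspo3, Lgr4 and Lef1 to those lower. At an unadjusted p under 0.05 there were 16 members (31.4%), where 16.0% of all genes were. The median difference was -0.040 over the members and 0.007 over all genes, and the median size of the difference was 0.147 and 0.137. For 15 members the groups did not overlap, 5 with KrP above and 10 with KrP below (29.4%), where that held for 20.3% of all genes (11.4% above and 8.93% below). Shares were also taken over genes with a group mean over 6.28, a background guide described below. There 9.09% of 44 members and 3.42% of 13724 genes passed unpaired, and 22.7% and 13.1% with the block. Groups were apart for 31.8% and 26.8%, and 34.1% and 22.5% had an unadjusted p under 0.05. In a bulk sample, fewer cells that express a gene and less RNA per cell cannot be told apart.

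Leaving out 1 sample changed these counts. Without KrP 2, 11 members passed (5.03% of all genes). Without KrP 1 and without WT 2 there were 3 each (1.45% and 1.15% of all genes), and without WT 1 there was 1 (1.04%). Without KrP 3 and without WT 3 none passed limma, where 0.383% and 0.455% of all genes did, and 12 and 15 members had an unadjusted p under 0.05 (10.6% and 11.1% of all genes). Among the 16 members with an unadjusted p under 0.05, KrP 2 was the KrP array nearest to the WT mean for 13. The same count was not taken over all genes, where calls also rose without KrP 2, from 483 to 1116.

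**Figure D1:**
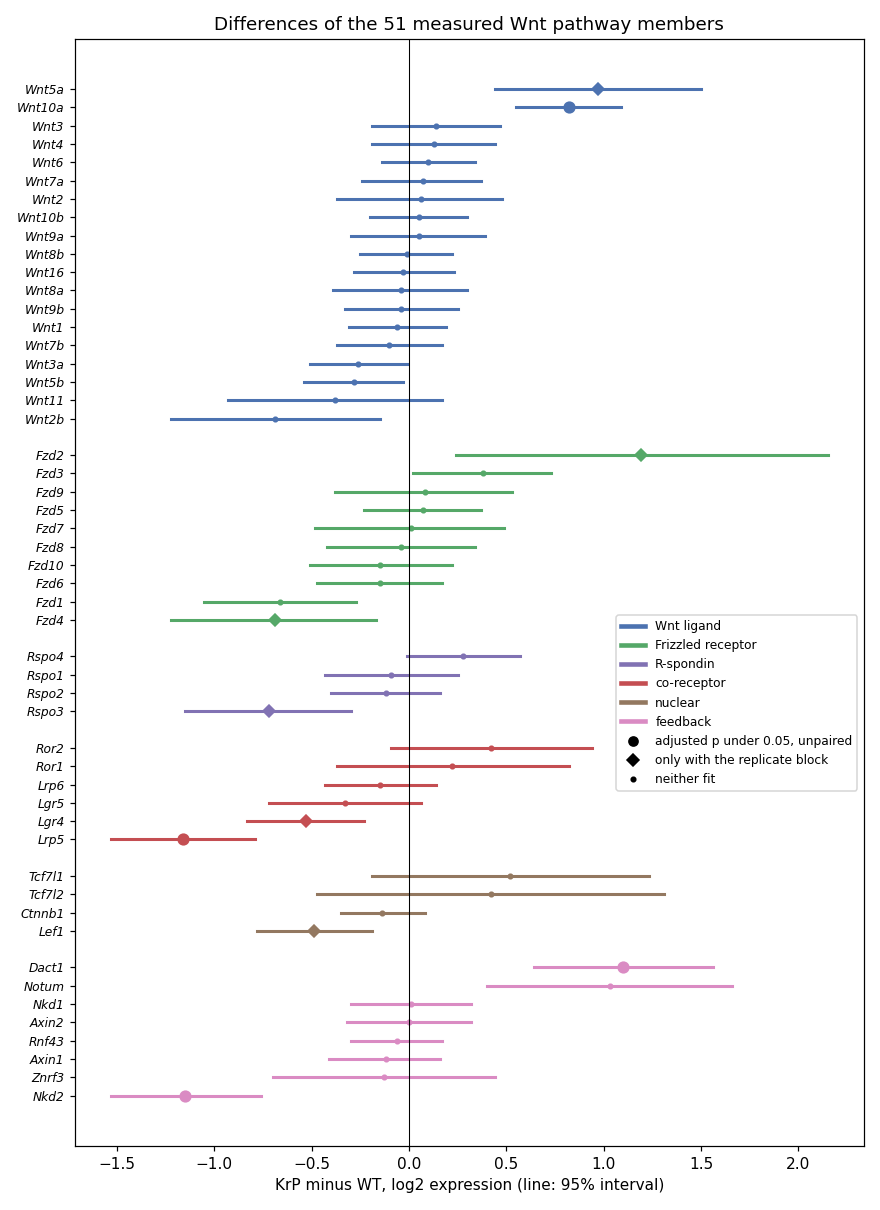
Difference of KrP and WT means (log2, horizontal axis) with its 95% interval from limma for each of the 51 members, grouped by role. Intervals are not adjusted for multiple testing and exclude 0 for the 16 members with an unadjusted p under 0.05. Among these, only Wnt10a and Dact1 (above 0) and Lrp5 and Nkd2 (below 0) passed at an adjusted p under 0.05 in the unpaired fit. Most Wnt ligands lie close to 0.

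Among the 19 Wnt ligands, 1 rose, none fell and 18 did not pass (2 rose with the block). Wnt10a, a ligand of hair follicle, tooth and skin appendage development, had log2 values of 6.89, 7.15 and 6.95 in WT 1 to 3 and of 7.83, 7.76 and 7.86 in KrP 1 to 3. All KrP samples lay above all WT samples, and the spread within each group was small beside the gap. The difference was 0.82 ± 0.12 (SE, n = 3 each; 95% interval 0.55 to 1.09; limma adjusted p = 0.0150). The call ended without WT 1 (adjusted p = 0.0572), WT 3 (0.0960) or KrP 3 (0.115), while the difference stayed between 0.77 and 0.90. Wnt6 is the neighbouring gene of Wnt10a in the mouse genome, as Wnt1 is of Wnt10b. Wnt6 differed by 0.10 (95% interval -0.14 to 0.34), and Wnt10b, the closest relative of Wnt10a, by 0.05 (-0.20 to 0.30). The log2 ratio of Wnt10a to Wnt6 on the same array was 0.57 ± 0.06 in WT against 1.30 ± 0.08 in KrP (SD, n = 3 per group; exact two-sided permutation p = 0.10). That is the smallest p that 3 samples against 3 allow, as it is for each of the 5 ratios of related genes computed here (0.10 after Benjamini-Hochberg adjustment). All 5 pairs were chosen after the values of their members were seen. Their p-values, here and below, add no support to the differences of the single genes.

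Wnt5a, the ligand of Ror receptors that shapes growing limbs and skin outgrowths, showed 8.62, 7.85 and 8.39 in WT 1 to 3 and 9.58, 9.23 and 8.96 in KrP 1 to 3. The groups did not overlap, but the samples within each group were far apart. The difference of 0.97 ± 0.23 (95% interval 0.44 to 1.50) did not pass the unpaired limma fit (adjusted p = 0.0833) and passed with the block (adjusted p = 0.0171). Its relative Wnt5b lay at 7.08, 7.31 and 7.20 in WT and at 6.88, 6.97 and 6.89 in KrP samples. All KrP values of Wnt5b lay below all WT values, by a mean of -0.28 ± 0.11 that did not pass (limma adjusted p = 0.263). The log2 ratio of Wnt5a to Wnt5b was 1.09 ± 0.51 in WT against 2.34 ± 0.32 in KrP (SD, n = 3 per group; exact two-sided permutation p = 0.10).

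Wnt2b, a ligand of the beta-catenin branch, lay at 8.57, 8.32 and 8.35 in WT 1 to 3 and at 7.25, 8.23 and 7.70 in KrP 1 to 3. KrP 2 sat just under the WT samples and KrP 1 more than a log2 unit below them. The difference was -0.69 ± 0.23 (limma adjusted p = 0.196, and 0.0278 without KrP 2). Without KrP 1 it was -0.45 (adjusted p = 0.363), and only the run without KrP 2 passed. Wnt3a, the ligand most used to switch on beta-catenin in culture, had 6.11, 6.26 and 6.06 in WT and 5.92, 5.95 and 5.77 in KrP samples. These values lie under 6.28. That was the 95th percentile over 1105 olfactory receptor genes, a family with no known wide use in fibroblasts, and served as a guide to background. The difference of Wnt3a was -0.26 (95% interval -0.51 to -0.01; limma adjusted p = 0.284). Wnt3, Wnt8b, Wnt10b and Wnt16 also had both group means at or under that guide, as had Fzd6 and Fzd10 among the receptors. The other ligands differed by between -0.38 (Wnt11) and 0.14 (Wnt3). Wnt11, a ligand of cell movement, was low in KrP 1 (8.15), while KrP 2 and KrP 3 (8.96 and 8.97, respectively) lay within the WT range of 8.81 to 9.27. For Wnt4, a ligand of mammary branching, the difference was 0.13 (95% interval -0.19 to 0.44).

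None of the 10 Frizzled receptors passed the unpaired limma fit (4 had an unadjusted p under 0.05), and the block gave 1 higher and 1 lower. Fzd2 varied most, with 7.16, 6.30 and 7.06 in WT 1 to 3 and 8.79, 7.08 and 8.23 in KrP 1 to 3. Samples numbered 2 were lowest in both groups, and KrP 2 lay within the WT range. The difference of 1.19 ± 0.41 gave a limma adjusted p of 0.208, or 0.0101 with the block and 0.0203 without KrP 2. Left-out samples other than KrP 2 gave a limma adjusted p from 0.23 to 0.498. Fzd4, which also serves as the receptor of norrin in blood vessels, had 9.18, 8.26 and 8.79 in WT and 8.17, 7.84 and 8.14 in KrP samples. Its groups were apart, though only by 0.09 between WT 2 and KrP 1. The difference was -0.69 ± 0.23 (limma adjusted p = 0.185, or 0.0293 with the block). Fzd1, a receptor of the beta-catenin branch, had 11.35, 11.14 and 11.15 in WT and 10.28, 10.93 and 10.44 in KrP samples. All 3 KrP samples were below all WT samples, and KrP 2 was the closest. The difference of -0.66 ± 0.17 did not pass (limma adjusted p = 0.101, 0.0513 with the block, and 0.00927 without KrP 2). Leaving out any other sample gave a limma adjusted p from 0.191 to 0.364. Fzd3, which works in axon growth and cell polarity, lay at 8.06, 7.59 and 7.76 in WT and 8.26, 8.25 and 8.03 in KrP samples, and the groups overlapped (limma adjusted p = 0.279). The other 6 receptors differed by between -0.15 and 0.08. Fzd7 had group means of 10.13 and 10.14, with a 95% interval of the difference from -0.48 to 0.49.

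Of the 6 co-receptors and other receptors, 1 fell and 5 did not pass (2 fell with the block). Lrp5, the co-receptor that carries the Wnt signal to Axin, had log2 values of 10.29, 9.84 and 10.04 in WT 1 to 3 and of 8.77, 9.12 and 8.80 in KrP 1 to 3. Every KrP sample was below every WT sample, with 0.72 between the closest arrays, WT 2 and KrP 2. The difference was -1.16 ± 0.16 (SE, n = 3 each; 95% interval -1.53 to -0.79; limma adjusted p = 0.0125). It lost its call without WT 3 (adjusted p = 0.0761) or KrP 3 (0.0955) and kept it when any of the other 4 samples was left out. Lrp6, the other co-receptor of this branch, lay at 11.47, 11.73 and 11.50 in WT and at 11.34, 11.64 and 11.28 in KrP samples. Its groups overlapped, and its difference of -0.15 had a 95% interval from -0.43 to 0.14. The log2 ratio of Lrp5 to Lrp6 was -1.51 ± 0.36 in WT against -2.52 ± 0.05 in KrP (SD, n = 3 per group; exact two-sided permutation p = 0.10). A further, dimmer probe set of Lrp6 differed by 0.12.

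The R-spondin branch held lower values without a call in the unpaired fit. Lgr4, an R-spondin receptor, had 10.01, 9.94 and 9.80 in WT and 9.35, 9.57 and 9.24 in KrP samples. The groups were apart, and the difference of -0.53 ± 0.13 gave a limma adjusted p of 0.0902, or 0.0277 with the block. Rspo3, an R-spondin of vessels and mesenchyme, was nearly constant in WT samples (8.94, 8.93 and 8.86) and lower in KrP 1 to 3 (8.08, 8.60 and 7.88). Its difference was -0.72 ± 0.19 (limma adjusted p = 0.103, or 0.0324 with the block and 0.0105 without KrP 2). With any other sample left out it did not pass (limma adjusted p from 0.189 to 0.369). Rspo4, known for nail growth, was the R-spondin with KrP samples above WT samples, at 9.05, 9.38 and 9.25 against 8.97, 8.95 and 8.92. Its difference was 0.28 (95% interval -0.01 to 0.57; limma adjusted p = 0.331). Rspo1 and Rspo2 differed by -0.09 and -0.12, and Lgr5 by -0.33 (95% interval -0.72 to 0.06). Ror1 and Ror2, the receptors used by Wnt5a, differed by 0.22 (95% interval -0.37 to 0.82) and 0.42 (-0.09 to 0.94), and their groups overlapped.

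**Figure D2:**
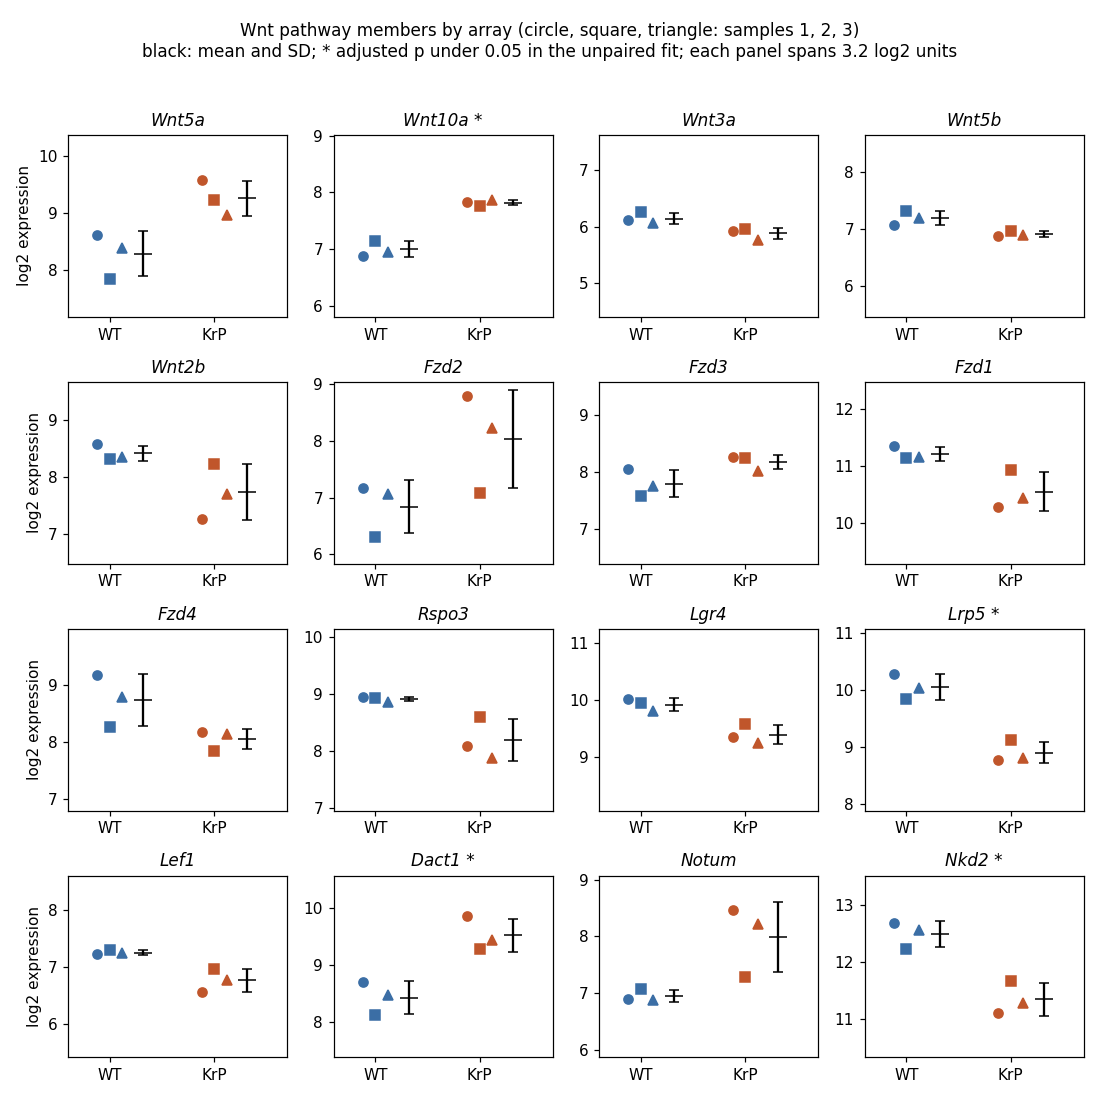
Log2 expression (vertical axis, 3.2 log2 units in every panel) of the 16 members with an unadjusted p under 0.05 on the 3 WT and 3 KrP arrays, with the mean and SD of each group in black. Wnt10a, Lrp5, Dact1 and Nkd2 carry an asterisk, and KrP 2 lies nearest the WT mean in 13 of the 16 panels. That count was not taken over all genes.

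None of the 4 nuclear genes passed the unpaired limma fit, and 1 had an unadjusted p under 0.05. Lef1, the partner of beta-catenin known from mammary mesenchyme and hair follicle cells, had 7.22, 7.29 and 7.24 in WT 1 to 3 and 6.56, 6.96 and 6.77 in KrP 1 to 3. WT samples were close together and every KrP sample lay below them. The difference was -0.49 ± 0.13 (limma adjusted p = 0.111, or 0.0458 with the block and 0.0487 without KrP 2). It did not pass with any other sample left out (limma adjusted p from 0.18 to 0.357). Ctnnb1, which encodes beta-catenin, had group means of 12.21 and 12.08 (95% interval of the difference -0.35 to 0.08). Tcf7l1, mostly a repressor, and Tcf7l2 differed by 0.52 ± 0.31 and 0.42 ± 0.39, with overlapping groups. Both were lowest in the samples numbered 2, as Fzd2 was. Tcf7l2 lay at 7.15 in WT 2 and 7.21 in KrP 2 against 7.65 to 8.81 in the other arrays.

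Of the 8 feedback genes, Dact1 rose and Nkd2 fell, unpaired and blocked, and 6 did not pass. Dact1, which binds Dishevelled inside the cell and can restrain or aid Wnt signals, had 8.70, 8.13 and 8.47 in WT 1 to 3 and 9.86, 9.29 and 9.45 in KrP 1 to 3. KrP samples lay above WT samples, and samples numbered 2 were lowest in each group. The difference was 1.10 ± 0.20 (SE, n = 3 each; 95% interval 0.64 to 1.56; limma adjusted p = 0.0346, or 0.00284 with the block). With its probe sets averaged the difference was 0.64 (adjusted p = 0.0482), since the dimmer probe set differed by 0.18. The call held without KrP 2 and ended without KrP 1 (adjusted p = 0.0623), KrP 3 (0.154), WT 1 (0.0536), WT 2 (0.0904) or WT 3 (0.149). Nkd2, which blocks Dishevelled at the membrane, lay at 12.69, 12.24 and 12.57 in WT and at 11.11, 11.67 and 11.28 in KrP samples. Again the groups were apart, with KrP 2 and WT 2 the closest arrays. The difference was -1.15 ± 0.17 (95% interval -1.53 to -0.76; limma adjusted p = 0.0153), and it no longer passed without WT 1 (adjusted p = 0.0585), WT 3 (0.0896) or KrP 3 (0.102). Nkd1, its relative, differed by 0.01 (95% interval -0.30 to 0.32). The log2 ratio of Nkd2 to Nkd1 was 5.28 ± 0.27 in WT against 4.13 ± 0.32 in KrP (SD, n = 3 per group; exact two-sided permutation p = 0.10).

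Notum, an enzyme that strips the lipid from Wnt proteins, had 6.90, 7.08 and 6.88 in WT 1 to 3 and 8.46, 7.29 and 8.21 in KrP 1 to 3. KrP 1 and KrP 3 were high and KrP 2 lay 0.21 above the highest WT sample. The difference of 1.03 ± 0.27 did not pass (limma adjusted p = 0.112, 0.0531 with the block, and 0.00361 without KrP 2). No other left-out sample brought a call (limma adjusted p from 0.203 to 0.378). A dimmer probe set of Notum differed by 0.19, and with probe sets averaged the difference was 0.61 (adjusted p = 0.193). Axin2, the feedback gene most widely read as a measure of beta-catenin signalling, had 7.55, 7.55 and 7.82 in WT and 7.81, 7.46 and 7.65 in KrP samples. Both group means were 7.64, and the 95% interval of the difference ran from -0.32 to 0.32, so changes of up to 1.25-fold in either direction are within it. Its dimmer probe set differed by -0.14. Axin1, a scaffold of the destruction complex, differed by -0.12 (95% interval -0.41 to 0.16). The ubiquitin ligases Rnf43 and Znrf3 differed by -0.06 (-0.30 to 0.17) and -0.13 (-0.70 to 0.44), and Znrf3 ran from 8.99 in KrP 1 to 10.09 in KrP 2.

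The RefSeq promoter windows of mouse assembly GRCm38.p6, from 250 bases before to 50 after a start site, matched 35 of the 51 members by symbol. They were searched on both strands for the TCF and LEF heptamer CTTTGNN, with A or T at each N. At least 1 window held a match in 6 of the 35 members (17.1%), where 18.9% of 27025 genes with a window had one. The matches lay in Fzd7, Lef1, Wnt5b, Wnt11, Wnt3 and Tcf7l2. The 250 bases before the start are shown for Dact1 and Nkd2, which passed in opposite directions, for Axin2, which had equal means, and for Lef1, where 1 of 4 windows held a match. Capitals mark the match in Lef1, which is CTTTGTA on the other strand and starts at position -147 from that start site.
Dact1, chr12:71309634-71309883, plus strand: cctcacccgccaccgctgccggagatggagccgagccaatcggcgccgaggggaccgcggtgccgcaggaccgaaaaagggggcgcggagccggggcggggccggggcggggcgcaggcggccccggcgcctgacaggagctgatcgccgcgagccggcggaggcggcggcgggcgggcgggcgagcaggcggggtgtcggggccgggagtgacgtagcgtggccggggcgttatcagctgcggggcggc
Nkd2, chr13:73847632-73847881, minus strand: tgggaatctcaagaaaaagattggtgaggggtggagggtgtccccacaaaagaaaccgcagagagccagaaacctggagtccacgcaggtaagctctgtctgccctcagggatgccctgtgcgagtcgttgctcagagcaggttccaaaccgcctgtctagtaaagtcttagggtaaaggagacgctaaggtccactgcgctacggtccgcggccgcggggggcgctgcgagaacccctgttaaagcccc
Axin2, chr11:108920099-108920348, plus strand: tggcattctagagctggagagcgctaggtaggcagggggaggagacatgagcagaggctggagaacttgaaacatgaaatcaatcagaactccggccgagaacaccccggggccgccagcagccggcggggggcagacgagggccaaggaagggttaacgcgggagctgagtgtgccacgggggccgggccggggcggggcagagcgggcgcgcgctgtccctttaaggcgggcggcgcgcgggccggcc
Lef1, chr3:131156044-131156293, plus strand: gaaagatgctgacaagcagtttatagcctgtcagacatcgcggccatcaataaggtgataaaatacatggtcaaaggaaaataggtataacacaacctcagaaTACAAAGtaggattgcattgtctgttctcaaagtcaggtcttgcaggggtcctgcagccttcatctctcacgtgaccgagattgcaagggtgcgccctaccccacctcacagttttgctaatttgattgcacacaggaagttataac
The stretch of Dact1 holds 41 CpG dinucleotides and 80.4% G and C, that of Nkd2 14 and 58.4%, that of Axin2 24 and 69.2%, and that of Lef1 5 and 44.8%. The medians over all windows were 6 CpG dinucleotides and 52.4% G and C. A match is a description of letters and not of a bound factor.

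Other genes of the pathway were taken from lists of secretion factors, secreted inhibitors, the destruction complex, nuclear partners, cell polarity genes and canonical targets. Of 105 measured, 4 rose and 2 fell (5.71%, where 2.18% of all genes passed). The block gave 18 higher and 4 lower (21.0%, where 8.35% of all genes passed, 5.33% higher and 3.02% lower). In the unpaired fit most calls were in the secreted inhibitors, of which 3 of 19 rose and 1 fell (6 and 1 with the block). Sfrp1, which binds Wnt proteins outside the cell, went from 9.25, 8.88 and 9.41 in WT to 11.61, 11.24 and 11.58 in KrP samples (limma adjusted p = 0.00126). Sfrp4 and Sfrp2 of the same family had differences of 1.33 ± 0.11 (adjusted p = 0.00225) and 0.85 ± 0.17 (adjusted p = 0.0453). Dkk2, which binds Lrp5 and Lrp6, went from 10.78, 10.85 and 11.13 to 8.56, 9.30 and 8.98 (adjusted p = 0.00380). Sfrp1, Sfrp4 and Dkk2 passed in every alternative run, whereas Sfrp2 lost its call when any sample but KrP 2 was left out. Its adjusted p was also 0.0701 with probe sets averaged (difference 0.49) and just over 0.05 with quantile normalisation and median centring.

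Among 21 canonical targets that are not members, 1 was called higher and 1 lower (2 and 3 with the block). Ccnd1, the cyclin D1 gene, was at 11.58, 10.69 and 11.19 in WT and at 8.10, 9.46 and 8.11 in KrP samples (difference -2.60 ± 0.38, limma adjusted p = 0.0160). Sall1, a zinc finger factor, was at 6.60, 7.21 and 6.99 in WT and at 7.82, 8.39 and 8.02 in KrP samples (difference 1.14 ± 0.20, adjusted p = 0.0312). Both calls ended without WT 1, WT 3 or KrP 3 (adjusted p from 0.0587 to 0.0955 for Ccnd1 and from 0.0796 to 0.147 for Sall1). None of the 4 secretion factors passed either fit, and none of 18 destruction complex and Dishevelled genes, 20 nuclear partners or 23 cell polarity genes passed the unpaired limma fit (0, 3, 6 and 5 at an unadjusted p under 0.05, in that order). With the block, 6 of the nuclear partners rose and none fell. The largest of these differences was in Bcl9 (1.15 ± 0.12 with the block, adjusted p = 0.00442, against 0.112 unpaired). The others were in Cby1 (0.70), Tbl1x and Tbl1xr1 (0.66 each), Ctnnbip1 (0.57) and Tle5 (0.54). Their limma adjusted p ran from 0.0130 to 0.0327 with the block and from 0.199 to 0.499 unpaired. The groups of Tle5 and Tbl1x overlapped, and those of Cby1, Ctnnbip1 and Tbl1xr1 were apart by only 0.01 to 0.02. In the cell polarity list Ptk7, a Wnt co-receptor of that branch, had a difference of 1.12 (adjusted p = 0.00752 with the block, 0.144 unpaired).

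**Figure D3:**
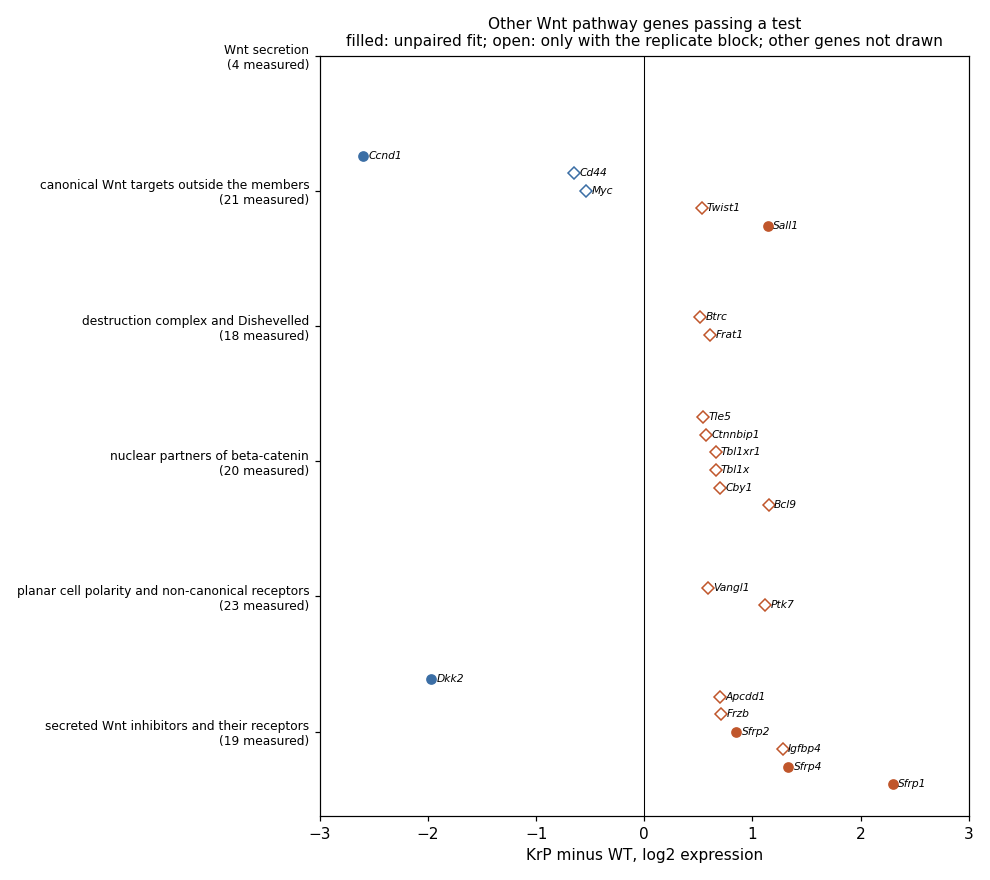
Difference of KrP and WT means (log2, horizontal axis) for genes of the 6 further pathway lists that passed limma, with filled symbols for the unpaired fit and open symbols for genes that passed with the replicate block alone. Sfrp1 lies farthest to the right and Ccnd1 farthest to the left.

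The samples were checked against markers of fibroblasts, of cell types that the sort was meant to remove, and of other cell types of the skin. The 10 fibroblast markers had a mean log2 level of 11.38 to 11.96 in WT and 11.79 to 12.32 in KrP samples, and none passed the unpaired limma fit (5 at an unadjusted p under 0.05). Their median difference was 0.455. With the block, Pdgfrb, Col1a1 and Col1a2 rose (differences of 0.43, 1.18 and 1.15, limma adjusted p = 0.0153, 0.0486 and 0.0323), and none fell. The part of these shifts in the members' values was not tested. Keratinocyte markers (9 measured of 10) lay at 6.91 in WT 2 and between 5.98 and 6.20 in the other arrays, and the 8 luminal epithelial markers at 7.28 in WT 2 and between 6.48 and 6.56 elsewhere. No gene of either list passed limma (1 and 0 at an unadjusted p under 0.05). Wnt10a, a gene that keratinocytes also use, differed by 0.90 without WT 2 (limma adjusted p = 0.0238), and the part of keratinocyte RNA in its values was not tested. Among 8 endothelial markers, Tek and Cldn5 fell by 0.76 and 0.95 (adjusted p = 0.0386 and 0.0130), and Kdr had a difference of -1.41 (adjusted p = 0.0658 unpaired and 0.00158 with the block). Their list mean ran from 6.62 to 6.94 in WT and from 6.43 to 6.64 in KrP samples. Pecam1, at 6.73 and 6.68, and Cdh5, at 7.79 and 8.33, did not pass. The part of endothelial RNA in the lower values of Lrp5, Fzd4, Rspo3 and Lef1 was not tested.

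Of the remaining lists, 1 of 8 blood cell markers rose (Csf1r, 7.19 to 7.92) and 1 of 8 pericyte and smooth muscle markers fell (Cspg4, 8.60 to 7.50). Every other blood cell marker was lower in KrP samples, with differences from -0.41 (Cd3e) to -0.09 (Adgre1 and Itgam), and none of these passed. Of the 8 blood cell markers, 6 had both group means under the background guide. The median difference was -0.15 over the blood cell list and 0.04 over the pericyte and smooth muscle list. In the latter list Acta2, the smooth muscle actin gene, went from 9.64, 10.17 and 10.38 in WT to 10.69, 11.08 and 12.36 in KrP samples. Its groups did not overlap, and the difference of 1.31 ± 0.40 passed with the block alone (limma adjusted p = 0.0138, against 0.154 unpaired). The calls of Tek, Cldn5, Csf1r and Cspg4 all ended without WT 3 (limma adjusted p from 0.0629 to 0.165) and without KrP 3 (from 0.061 to 0.196). That of Tek ended without any of the other 4 samples too, that of Csf1r also without WT 1 or KrP 1, and that of Cspg4 also without WT 1 or WT 2. None of the 8 dermal papilla, 8 mast cell and melanocyte, 4 Schwann cell or 5 adipocyte markers passed the unpaired limma fit (1, 1, 0 and 0 at an unadjusted p under 0.05). Alpl, an alkaline phosphatase of the dermal papilla list, passed with the block alone (difference -0.41, adjusted p = 0.0386, against 0.227 unpaired). The dermal papilla list, for cells that use Wnt signals in the hair follicle, had means of 8.30 to 8.46 in WT and 8.23 to 8.37 in KrP samples. Over all genes, arrays correlated by 0.989 to 0.995 within WT, 0.985 to 0.993 within KrP and 0.972 to 0.989 across groups. Their medians over all probe sets lay between 6.34 and 6.43. Pthlh, the gene of PTHrP, was not analysed here, and the genotype labels have no direct check.

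**Figure D4:**
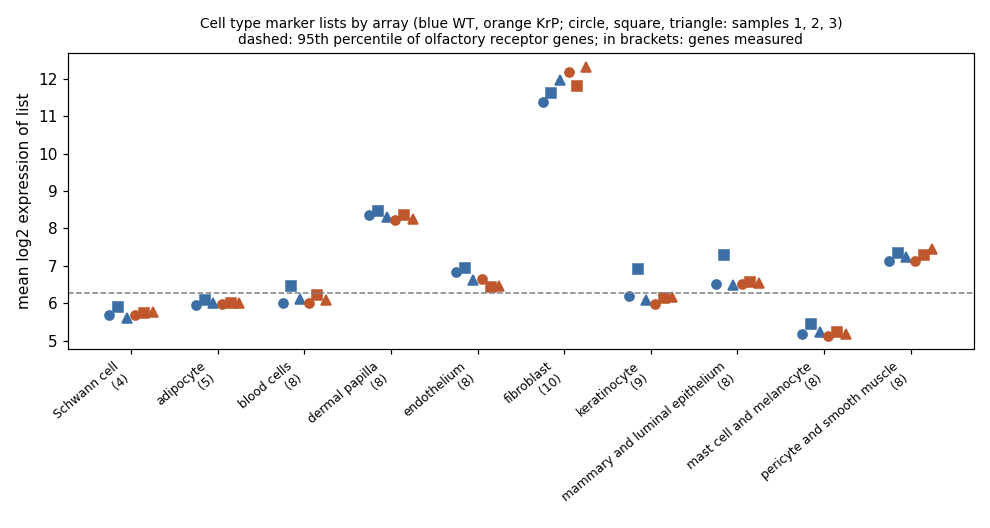
Mean log2 expression (vertical axis) of 10 cell type marker lists on each array, WT in blue and KrP in orange, with the number of genes measured in brackets and the background guide of 6.28 as a dashed line. Fibroblast markers are high on all 6 arrays, and WT 2 stands above the other arrays in both epithelial lists.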

How the data were processed

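Values were log2 expression per probe set and array, normalised and deposited by the authors, and RMA and Partek are named without versions in the submitters' processing notes. The sources used here do not give a genome build or filters. Values ran from 1.72 to 14.32 on the log2 scale, and no further normalisation was applied. Arrays carry no read depth, so their number limits the precision. Of 34390 probe sets, 23521 had 1 gene symbol in the platform annotation, 1814 had several and 9055 had none. Symbols were updated by gene ID through RefSeq (23328 found), and 1082 genes with several probe sets took the one with the highest mean.

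KrP and WT were compared with limma 3.58.1 in R 4.3.3 (lmFit, eBayes with trend) over 22180 genes, with Benjamini-Hochberg adjustment over all of them. Figures used matplotlib 3.10.9. Members, lists and tests were chosen with earlier results of these data known. Values of each sample are given for members that passed either fit or had an unadjusted p under 0.05, and for Lrp6, Rspo4 and Axin2. Of the other pathway lists the called genes are named. Bcl9, Ptk7 and individual markers were chosen after their values were seen.

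Groups share the replicate numbers 1 to 3. Deviations from group means correlated by 0.414, 0.350 and 0.120 between samples numbered 1, 2 and 3. Between samples of different number the correlations ran from -0.385 to 0.067, not far below that of the third pair. On this ground the numbers were read as a pairing, though no label states one. The correlations come from the same values as the blocked fit, so they are no independent ground for it. The unpaired fit was kept as the main one, and blocked values are given where they change the call of a member, a marker or a named pathway gene, with counts for the lists. Further alternatives averaged probe sets, applied quantile normalisation or median centring, kept the upper 50% of genes by mean, left out the trend, or left out each sample.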

Additional observations from a re-analysis of the deposited data

How the results depend on the processing

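The 4 member calls held under averaged probe sets, quantile normalisation, median centring, the upper 50% of genes and no trend. With the replicate block 10 members, 22 genes of the other pathway lists and 1851 genes in all passed, against 4, 6 and 483 unpaired. Over the 6 fits that left out a sample, the counts ran from 0 to 11 members, from 3 to 12 genes of the other lists and from 85 to 1116 genes in all. The members with groups apart ran from 17 to 25 (33.3% to 49.0%) in these fits, where 26.2% to 36.5% of all genes had groups apart. None of the 16 members with an unadjusted p under 0.05 in the unpaired fit changed direction in the 12 alternatives. Of the other 35 members, 17 changed sign in at least 1 alternative, with differences of at most 0.15 after the change, and none passed in any. The filter on the mean kept 35 of the 51 members, and Wnt3a was the only one of those 16 that it dropped. The scaling alternatives moved the median difference of all genes from 0.007 to -0.005 and 0.003. Overlap was not recounted for the block or the trend, which leave the values as they are.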
